A study of Canis lupus familiaris with 29 samples.

Results

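The genes described here are 7 markers of Schwann cells and of the sustentacular cells of the adrenal medulla: SOX10, FOXD3, CDH19, S100B, GFAP, MBP and PMP22. They were chosen by name, with no measured value in the rule. Each name matched 1 gene, so the markers are 7 of the 30951 genes counted. Schwann cells are the glia of peripheral nerves and come from the neural crest, and some of them wrap axons in myelin. Sustentacular cells are slender glia-like cells around nests of chromaffin cells, the cells that make catecholamines, and pathologists know them from their staining for S100 protein in the medulla and in many of its tumors. Most of the markers are shared by both cell types, so these genes do not tell one from the other.

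RNA was sequenced from adrenal and tumor tissue of dogs, in 29 samples. There were 10 normal adrenal medullas (NAMs) and 19 pheochromocytomas and paragangliomas (PPGLs), tumors of chromaffin cells inside and outside the adrenal gland. The authors had split the PPGLs into group 1, with 7 tumors, and group 2, with 12, after leaving out 2 further tumors. Reads were counted over the exons of each gene, and levels are given as CPM, counts relative to the total of the library, scaled by the trimmed mean of M values (TMM).

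All NAMs were snap-frozen, and their donors were healthy research dogs. The PPGLs were taken from client-owned dogs of several clinics, at surgery or after euthanasia, some kept in a stabilizing solution before freezing, and all except 1 were pheochromocytomas. Tissue therefore cannot be told apart from the origin of the dogs or, in part, from storage. The sample labels give no treatment, genotype or age. The PPGL groups were drawn by the authors from a principal component analysis of these same samples, so a p between them describes that split. Each sample is a piece of whole tissue, and its glial cells were not counted.

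A NAM had 19258054 to 35918182 counts in total and a PPGL 18208718 to 31919833. The smallest level that can be shown was taken as 3 counts. This stood for 0.0779 to 0.164 CPM across the NAMs, and across the PPGLs for 0.0895 to 0.175 CPM, with only counting error taken into account. In 4 PPGLs a chromaffin gene went against the label. TH, the rate-limiting enzyme of catecholamine synthesis, was at 10.8 CPM in replicate 3 and 2.15 CPM in replicate 5 of group 1 and at 32.3 CPM in replicate 7 of group 2, where the lowest NAM had 1057 CPM. CHGB, a protein of secretory granules, was at 27.1 CPM in replicate 7 of group 1, where the lowest NAM had 5688 CPM. The markers were also tested without these 4 tumors, a choice made after their values were seen.

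SOX10 is the transcription factor that specifies and maintains the glial lineage of the neural crest. The gene (ENSCAFG00000001436) lies on the plus strand of chromosome 10, at 26681122 to 26689882 in the CanFam3.1 build, and its counted exons span 1485 bases. In the 10 NAMs its level was 3.63 CPM at the lowest, 5.89 at the median and 14.6 at the highest. In group 1 the lowest, median and highest levels were 0.209, 1.18 and 21.0 CPM, and in group 2 they were 0.0531, 1.19 and 10.9 CPM. Most tumors had little SOX10, while a minority had as much as a NAM. Of the 19 PPGLs, 13 lay below every NAM, 5 within the NAM range and 1 above it. The 6 tumors that were not below were replicates 4 and 6 of group 1, at 21.0 and 11.0 CPM, and replicates 2, 3, 5 and 9 of group 2, at 7.80, 4.46, 10.9 and 7.01 CPM. The lowest level, in replicate 11 of group 2, was 1 count. Because the tissue was measured in bulk, fewer glial cells and less RNA per glial cell cannot be told apart, here or for the other markers.

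FOXD3, a transcription factor of neural crest cells and early glia, was measured at low depth. The gene (ENSCAFG00000023383) is on the minus strand of chromosome 5 at 46819821 to 46821693. Its counts were 7 to 94 in NAMs and 0 to 88 in PPGLs, and 7 of 19 PPGLs had 3 counts or fewer. The lowest, median and highest levels were 0.279, 0.930 and 3.70 CPM in NAMs, 0.0671, 0.706 and 3.90 CPM in group 1, and 0, 0.201 and 2.77 CPM in group 2. Of the PPGLs, 10 lay below every NAM, 8 within the NAM range and 1, replicate 4 of group 1, above it. The tumors with the highest FOXD3 were replicates 4 and 6 of group 1 and replicate 5 of group 2, which also had high SOX10.

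CDH19 encodes a cadherin, a cell adhesion protein found on Schwann cell precursors and on mature peripheral glia. The gene (ENSCAFG00000000052) is on the plus strand of chromosome 1 at 11074305 to 11165626, with 2528 bases of counted exon. The NAMs had 19.3 CPM at the lowest, 36.2 at the median and 58.8 at the highest. Group 1 had 0.388, 4.66 and 78.1 CPM and group 2 had 0.529, 4.73 and 36.7 CPM at the lowest, median and highest. Both tumor medians were below every NAM, and 14 of 19 PPGLs lay there. The 5 others were replicate 4 of group 1, above every NAM at 78.1 CPM, and replicates 2, 3, 5 and 9 of group 2, within the NAM range at 29.3, 30.9, 36.7 and 24.3 CPM. These 5 tumors were among the 6 with SOX10 at NAM levels, and replicate 6 of group 1, the remaining tumor of those, had 17.2 CPM of CDH19, just under the lowest NAM.

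S100B encodes the calcium-binding protein behind the S100 stain for sustentacular cells. The gene (ENSCAFG00000012228) is on the minus strand of chromosome 31 at 39784506 to 39788183, with 741 bases of counted exon. It had 1 to 21 counts in NAMs, with a median of 4.5, then 0 to 9 counts in group 1 and 0 to 16 in group 2. At or under 3 counts were 4 of 10 NAMs and 16 of 19 PPGLs, so its RNA was near the limit of detection at this depth in both tissues. It did not pass the low-count filter in any of the 4 comparisons and was not tested. With no filter, its log2 fold change (FC) in PPGLs against NAMs was −1.03 (edgeR quasi-likelihood, QL, FDR-adjusted p = 0.259), and 16 of 19 PPGLs were below the NAM median. The highest count in a tumor was 16, in replicate 6 of group 2, whose SOX10 level was 0.893 CPM.

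GFAP, an intermediate filament protein of astrocytes, non-myelinating Schwann cells and some sustentacular cells, overlapped most between the groups. The gene (ENSCAFG00000013973) is on the plus strand of chromosome 9 at 18569892 to 18579461. Its lowest, median and highest levels were 1.18, 2.29 and 9.84 CPM in NAMs, 0, 1.88 and 9.76 CPM in group 1, and 0, 1.53 and 4.52 CPM in group 2. Of the PPGLs, 13 lay within the NAM range, 6 below it and 0 above it. No read was counted in replicate 5 of group 1 or in replicates 7 and 12 of group 2, where 3 counts would be 0.0895, 0.144 and 0.169 CPM. All 3 of these tumors also lay below every NAM in SOX10, CDH19 and FOXD3.

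MBP encodes myelin basic protein, which holds the cytoplasmic faces of the myelin sheath together. The gene (ENSCAFG00000000016) is on the plus strand of chromosome 1 at 2846589 to 2951860, and it also gives rise to transcripts outside myelin-forming cells. The lowest, median and highest levels were 7.86, 11.0 and 16.6 CPM in NAMs, 3.01, 16.3 and 24.6 CPM in group 1, and 3.89, 7.99 and 22.5 CPM in group 2. For MBP 6 PPGLs lay below every NAM, 8 within the NAM range and 5 above it, a more even split than for SOX10 and CDH19. Above every NAM were replicates 3, 4 and 6 of group 1, at 23.1, 24.6 and 18.2 CPM, and replicates 9 and 11 of group 2, at 18.7 and 22.5 CPM. The highest MBP in group 2 thus stood in the tumor with the lowest SOX10.

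PMP22, a membrane protein of compact peripheral myelin that fibroblasts and other cells also express, was the most abundant marker for its length. The gene (ENSCAFG00000017913) is on the minus strand of chromosome 5 at 38807826 to 38838971, with 844 bases of counted exon. The NAMs lay close together, with 19.3, 29.1 and 32.5 CPM at the lowest, median and highest. Group 1 had 6.64, 12.4 and 47.0 CPM and group 2 had 6.15, 13.9 and 45.2 CPM. Below every NAM were 12 of 19 PPGLs, 4 were within and 3 above. The 3 above were replicate 4 of group 1, at 47.0 CPM, and replicates 9 and 11 of group 2, at 33.4 and 45.2 CPM.

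**Figure D1:**
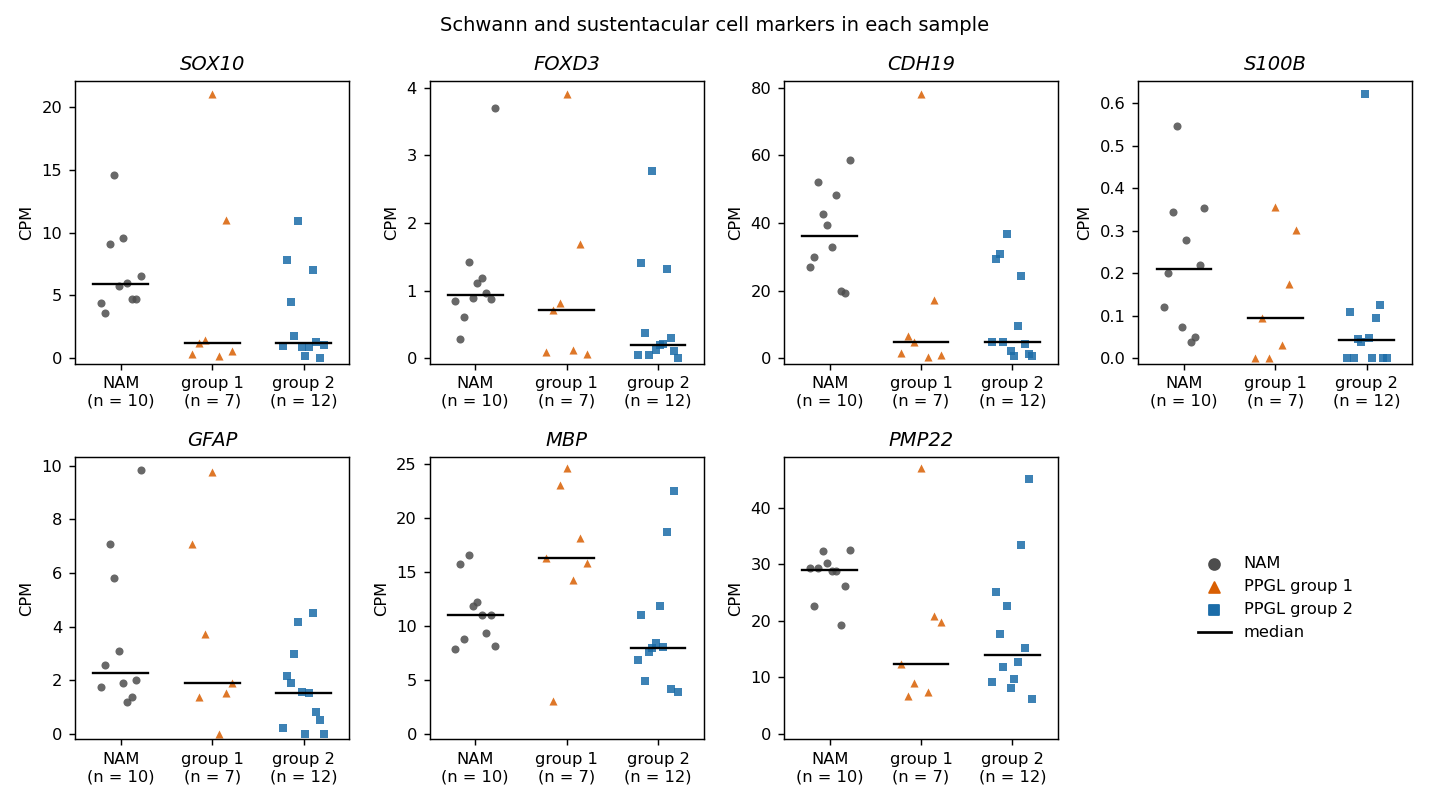
Level of each marker in CPM (vertical axis, linear, a separate scale in each panel) in every sample, with 10 NAMs, 7 PPGLs of group 1 and 12 of group 2; each point is a sample and the line is the group median. Most tumors lie under the NAMs for SOX10, CDH19 and PMP22, and a few reach or pass them, such as replicate 4 of group 1 with 78.1 CPM of CDH19.

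Per kilobase of counted exon, which allows levels of different genes to be compared, the mean order in NAMs was PMP22, CDH19, SOX10, MBP, GFAP, FOXD3 and S100B. PMP22 had 33.1 ± 4.97 CPM per kb and CDH19 14.6 ± 5.35 (SD, n = 10). SOX10 had 4.65 ± 2.24 and MBP 3.49 ± 0.929 CPM per kb (SD, n = 10). GFAP had 1.23 ± 0.982, FOXD3 0.840 ± 0.661 and S100B 0.300 ± 0.218 CPM per kb (SD, n = 10). SOX10 and MBP, and GFAP and FOXD3, did not differ beyond their spread, while the steps from PMP22 to CDH19 and from CDH19 to SOX10 were larger than the SDs. In the PPGLs the order of the median levels per kb was PMP22 at 15.1, MBP at 3.41, CDH19 at 1.87, SOX10 at 0.792, GFAP at 0.521, FOXD3 at 0.148 and S100B at 0.0615 (n = 19). MBP thus had a higher median than CDH19 in the tumors, where the ranges overlapped, but not a higher mean, at 3.78 against 5.39 CPM per kb. The summed length of the counted exons was used, so the transcripts in use in each tissue were not taken into account.

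The spread between tumors was wide for every marker tested. The SD of log2 CPM was 0.61 in NAMs and 2.03 in PPGLs for SOX10, and 0.56 and 2.19 for CDH19. For GFAP it was 1.02 and 2.10, for FOXD3 0.85 and 1.67, for MBP 0.37 and 0.92, and for PMP22 0.24 and 0.89 (n = 10 NAMs and 19 PPGLs). The median SD over all 14766 genes tested was 0.37 in NAMs and 0.66 in PPGLs, and 94.9% of genes had the higher SD in PPGLs. A higher SD in tumors was therefore shared with most genes, and the test of a mean difference for these markers has to be read against tumors that ran from a trace of a marker to NAM levels.

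The first comparison asked which markers differ between PPGLs and NAMs. With the edgeR QL F test, 0 of the 6 markers tested passed an FDR-adjusted p below 0.05 in either direction, and 37.5% of all genes did. At an unadjusted p under 0.05 there were 2, CDH19 and PMP22. CDH19 had a log2 FC of −1.44 ± 0.62 (SE; 95% interval −2.70 to −0.18; edgeR FDR-adjusted p = 0.0652), and 17 of 19 PPGLs were below the NAM median. PMP22 had −0.64 ± 0.28 (SE; 95% interval −1.22 to −0.07; edgeR FDR-adjusted p = 0.0725), and 16 of 19 PPGLs were below the NAM median. Both were lower in most tumors. For both, edgeR gave a call when certain single tumors with high levels were left out, and the call also depended on the test.

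A Mann-Whitney U-test on the same levels, which ranks the samples, called 2 of the 6 markers, against 38.9% of all genes. These were CDH19 (FDR-adjusted p = 0.00630) and PMP22 (0.0230), both lower in PPGLs. The Wald test of DESeq2 called 1 of the 6, against 41.0% of all genes, and this was CDH19, with a log2 FC of −1.46 and an FDR-adjusted p of 0.0357. A call for CDH19 therefore depended on the test. Without replicate 4 of group 1, which had the highest SOX10, CDH19, FOXD3, MBP and PMP22 of all tumors, edgeR gave −1.88 for CDH19 (FDR-adjusted p = 0.0109) and −0.78 for PMP22 (0.0200). CDH19 was also called without replicate 5 of group 2, at −1.58 (0.0464). PMP22 was also called without replicate 11 of group 2, at −0.77 (0.0216), and without replicate 9 of group 2, at −0.71 (0.0451).

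The other markers had larger p in the edgeR test. SOX10 had a log2 FC of −0.85 ± 0.62 (SE; 95% interval −2.12 to 0.43; edgeR FDR-adjusted p = 0.296), with 14 of 19 PPGLs below the NAM median, and by Mann-Whitney its FDR-adjusted p was 0.0512. FOXD3 had −0.66 ± 0.64 (SE; edgeR FDR-adjusted p = 0.434) and GFAP −0.61 ± 0.64 (0.482), with 14 and 13 of 19 PPGLs below the NAM median. MBP had 0.11 ± 0.29 (SE; edgeR FDR-adjusted p = 0.791), with 10 of 19 PPGLs below the NAM median. The sign of MBP was not stable, and without the 4 tumors with low chromaffin genes it was −0.024. The median log2 FC of the 6 markers was −0.65, beside 0.13 for all genes. Without those 4 tumors, edgeR called 0 of 6, with CDH19 at −1.14 and PMP22 at −0.51.

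Counted by position in place of a mean, 4 of the 6 markers had at least 10 of 19 PPGLs below every NAM, namely SOX10, FOXD3, CDH19 and PMP22, and 19.8% of all genes did. The limit of 10 was chosen after the values were seen, and no test was made of this count.

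PPGL group 1 and group 2 were each compared with the same 10 NAMs, so the results of both comparisons share their controls. In group 1 against NAMs, edgeR called 0 of 6 markers, where 35.1% of all genes were called, and 0 had an unadjusted p under 0.05. The Mann-Whitney U-test called 1, CDH19 (exact, FDR-adjusted p = 0.0484), against 28.1% of genes, and DESeq2 called 0, against 38.4%. CDH19 was lower than the NAM median in 6 of 7 tumors, with a log2 FC of −1.25 ± 0.84 (SE; edgeR FDR-adjusted p = 0.260). These values moved with the tumors included. Without replicate 4, CDH19 was at −2.84 (0.0114) and PMP22 at −1.15 (0.0139), and without the 4 tumors with low chromaffin genes they were at −0.52 (0.675) and −0.37 (0.554).

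With all 7 tumors of group 1, PMP22 had a log2 FC of −0.67 (edgeR FDR-adjusted p = 0.166) and MBP 0.54 (0.213), with 6 of 7 tumors below the NAM median for PMP22 and 6 of 7 above it for MBP. SOX10 was at −0.44 (0.709), FOXD3 at −0.19 (0.886) and GFAP at −0.02 (0.987), and 5, 5 and 4 of 7 tumors were below the NAM median. The signs of the last 3 were not stable. Without the 4 tumors with low chromaffin genes, 3 of them in group 1, they were 0.27, 0.42 and 0.43, and without replicate 4 of group 1 SOX10 was −1.52. Leaving out 1 library turned the sign of FOXD3 in 4 of 29 fits and that of GFAP in 7.

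In group 2 against NAMs, edgeR also called 0 of 6 markers, against 32.9% of all genes, and 1, CDH19, had an unadjusted p under 0.05. The Mann-Whitney U-test called 2, CDH19 (FDR-adjusted p = 0.00720) and PMP22 (0.0449), against 37.6% of genes. DESeq2 called 1, CDH19 (0.0431), against 36.6%. CDH19 had a log2 FC of −1.58 ± 0.71 (SE; edgeR FDR-adjusted p = 0.0877) and was below the NAM median in 11 of 12 tumors. PMP22 had −0.63 ± 0.32 (SE), not called by edgeR, and was below the NAM median in 10 of 12 tumors. Without replicate 11, the tumor with high PMP22 and almost no SOX10, PMP22 was called at −0.84 (0.0314). Without the tumors with low chromaffin genes CDH19 was at −1.46 (0.0622) and PMP22 at −0.58 (0.151), and edgeR called 0 of 6.

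SOX10 in group 2 had a log2 FC of −1.15 (edgeR FDR-adjusted p = 0.207), GFAP −1.11 (0.224) and FOXD3 −1.05 (0.264), each below the NAM median in 9 of 12 tumors. By Mann-Whitney the FDR-adjusted p of SOX10 was 0.0523. MBP had −0.23 (edgeR, 0.577), also with 9 of 12 below. All 6 estimates in group 2 were negative, with a median of −1.08 beside 0.09 for all genes. In group 1 the median of the 6 was −0.31, beside 0.13 for all genes. Whether group 1 and group 2 differ is not answered by these values but by the comparison of the groups with each other.

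**Figure D2:**
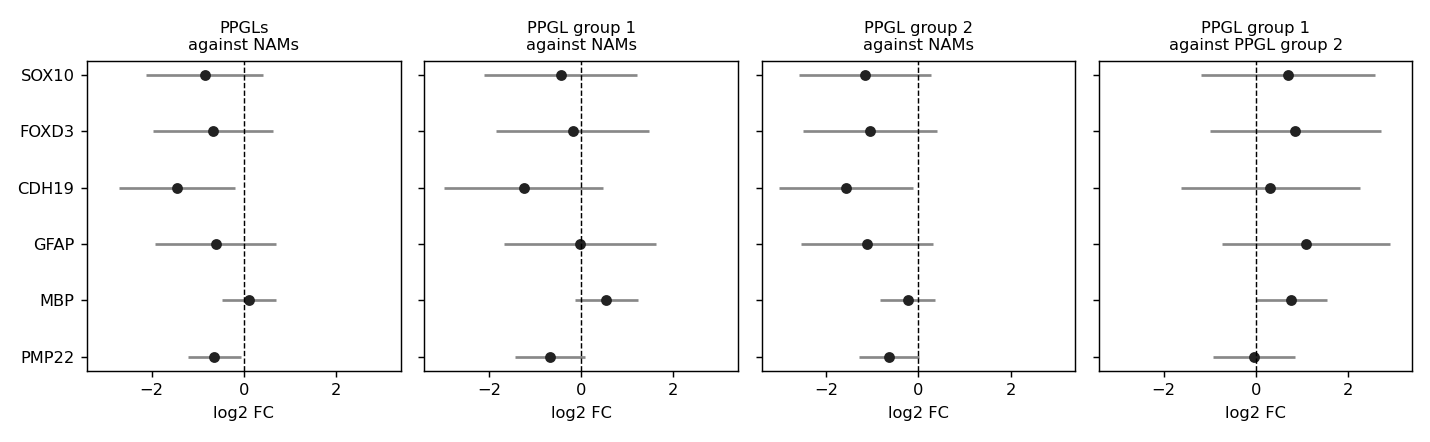
Log2 FC of the 6 tested markers (horizontal axis) in the 4 comparisons, with 95% confidence intervals from the edgeR QL fit as bars and 0 as the dashed line. The interval lies below 0 for CDH19 and PMP22 in PPGLs against NAMs and for CDH19 in group 2 against NAMs, and 0 markers passed the FDR threshold in any of the panels.

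Between PPGL group 1 and group 2, edgeR called 0 of 6 markers at an FDR-adjusted p below 0.1, where 6.92% of all genes were called. At an unadjusted p under 0.05 there were 0, and the Mann-Whitney U-test and DESeq2 also called 0, against 2.63% and 12.2% of all genes. MBP came nearest, with a median of 16.3 CPM in group 1 and 7.99 CPM in group 2, and 6 of 7 tumors of group 1 were above the median of group 2. Its log2 FC was 0.77 ± 0.37 (SE; 95% interval −0.0021 to 1.55; edgeR FDR-adjusted p = 0.259). The medians of SOX10 and CDH19 were almost the same in both groups, at 1.18 and 1.19 CPM for SOX10 and at 4.66 and 4.73 CPM for CDH19.

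The log2 FC between the groups was 1.09 for GFAP (edgeR FDR-adjusted p = 0.519), 0.86 for FOXD3 (0.635) and 0.71 for SOX10 (0.712), with 4, 4 and 3 of 7 tumors of group 1 above the median of group 2. CDH19 had 0.32 (0.886) and PMP22 −0.04 (0.968), each with 3 of 7 above. The intervals were wide, from −1.18 to 2.60 for SOX10 and from −1.62 to 2.26 for CDH19, and they hold large differences in either direction. Replicate 4 of group 1 decided the sign for 3 markers. Without it the values were −0.35 for SOX10, −1.26 for CDH19 and −0.0089 for FOXD3, and edgeR again called 0. Without the tumors with low chromaffin genes they were 1.29, 0.91 and 1.37, and edgeR called 0. PMP22 changed sign in 8 of 19 fits with 1 tumor left out, and without the tumors with low chromaffin genes it was 0.19.

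The markers varied together to different degrees. Over the 19 PPGLs, SOX10 and CDH19 had a Pearson r of 0.901 and a Spearman rho of 0.865 on log2 CPM, and r was 0.901 without the 2 tumors farthest from the median of SOX10, replicate 4 of group 1 and replicate 11 of group 2. Within group 1 their rho was 0.929 (n = 7), within group 2 0.825 (n = 12) and within NAMs 0.648 (n = 10). SOX10 and FOXD3 had an r of 0.801 and a rho of 0.711 over the 19 PPGLs, and SOX10 and GFAP 0.573 and 0.583. Tumors rich in SOX10 were thus rich in CDH19 and, less closely, in FOXD3.

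MBP did not follow over all tumors, with an r of 0.0213 and a rho of 0.0123 against SOX10 over the 19 PPGLs, an r of 0.280 and a rho of 0.714 within group 1 (n = 7) and of −0.209 and −0.245 within group 2 (n = 12). PMP22 stood between, at 0.440 and 0.430, and its r was 0.699 without the same 2 tumors. The points of each correlation are tumors that share their library and depth between both genes, and 15 pairs of markers were looked at in this way. All 15 had a positive r over the PPGLs. Of these, 5 contained SOX10 and all 5 are given here, with no p, and of the others CDH19 and FOXD3 had an r of 0.813 and MBP and PMP22 0.548. The r of SOX10 with the total counts was −0.207 in the PPGLs and 0.847 in the NAMs (n = 10), and the cause was not tested.

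**Figure D3:**
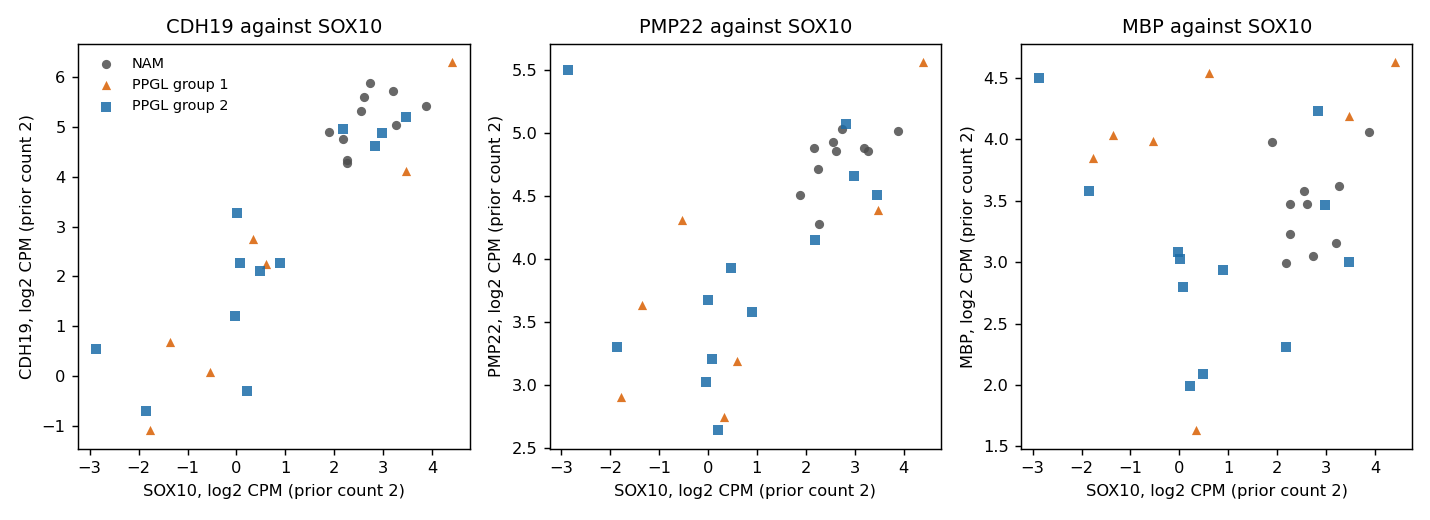
Log2 CPM (prior count 2) of CDH19, PMP22 and MBP (vertical axes) against that of SOX10 (horizontal axis), with each point a sample and color and shape marking the 10 NAMs, 7 tumors of group 1 and 12 of group 2. CDH19 climbs with SOX10 among the tumors (r = 0.901), PMP22 less so (0.440), and MBP does not over the 19 tumors together (0.0213).

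The genes most like SOX10 in their levels were ranked, with no test of what they share. Over the 29 samples and 14765 other genes, those with a high Spearman rho included RELN (0.886), COL9A2 (0.884), a gene with no name, HEPACAM (0.866), CDH19 (0.862), FOXD3 (0.862), LGI4 (0.852) and COL20A1 (0.850). Over the 19 PPGLs alone they included HEPACAM (0.884), GPR37L1 (0.874), COL20A1 (0.874), CDH19 (0.865), INSC (0.852), the same gene with no name, SLC35F1 (0.839) and SNAP25 (0.833). Of 14665 genes, CDH19 ranked 5 in likeness to SOX10 among the tumors, FOXD3 31, GFAP 174, PMP22 761 and MBP 7335.

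For the other markers, the most like genes over the 19 PPGLs included COL20A1 (0.946) and MYOC (0.921) for CDH19. For PMP22 they were LPAR1 (0.826), a receptor for lysophosphatidic acid, MICALL2 (0.812) and RXRG (0.782). For GFAP they were TRAPPC2 (0.779), TTYH1 (0.765) and UPF3A (0.759). For FOXD3 they were ITIH5 (0.861) and 2 genes with no name, and for MBP they included PCYOX1L (0.835) and a gene with no name.

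A wider list of 35 other genes of Schwann cells and peripheral glia gave 32 genes found by name and 28 tested in PPGLs against NAMs. SOX2, NCMAP and FABP7 were not found. Of the 28, edgeR called 2 higher and 5 lower, a share of 7 in 28 where 37.5% of all genes were called, and the median log2 FC was −0.50. Mann-Whitney called 2 higher and 12 lower, where 38.9% of all genes were called, and DESeq2 2 higher and 7 lower, where 41.0% were.

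The genes of the wider list that fell were SEMA3B at −3.33, SCN7A at −2.07, ETV1 at −1.37, ERBB2 at −1.01 and ITGB8, the last named after its values were seen. SCN7A, a sodium channel of non-myelinating Schwann cells, had a median of 144.6 CPM in NAMs and 22.4 CPM in PPGLs, and 18 of 19 PPGLs lay below every NAM (edgeR FDR-adjusted p = 0.00137). The genes that rose were EGR2, a regulator of myelination that is also induced in many other cells, at 2.65 ± 0.80 (SE; edgeR FDR-adjusted p = 0.0101), and CNP, an enzyme of myelin, at 0.47 ± 0.14 (0.00901). EGR2 was above the NAM median in 14 of 19 PPGLs and CNP in 17, and the Mann-Whitney U-test did not call EGR2 (0.113). With a cortical score in the fit the calls of ETV1 (−0.32, 0.701), ERBB2 (−0.35, 0.655), SCN7A (−2.11, 0.0822) and CNP (0.16, 0.606) were lost, as was that of ITGB8. ERBB3, the receptor of Schwann cells for neuregulin, was at 0.33 and its ligand NRG1 at 0.51, and neither was called. In group 1 against NAMs 2 were higher and 5 lower of 28, where 35.1% of all genes were called, and in group 2 against NAMs 1 was higher and 5 lower, where 32.9% were.

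Between the groups, 2 of 26 genes of the wider list were called, both higher in group 1, where 6.92% of all genes were called. NGFR, the low-affinity receptor for neurotrophins on Schwann cells, had a log2 FC of 3.30 ± 0.70 (SE; edgeR FDR-adjusted p = 0.0161). It was at 261, 646 and 275 CPM in replicates 1, 2 and 7 of group 1, above the highest tumor of group 2 at 53.8 CPM and the highest NAM at 117 CPM, and 6 of 7 tumors of group 1 were above the median of group 2. SOX10 in those 3 tumors was at 0.307, 1.18 and 0.604 CPM, below every NAM. GFRA3, a receptor for artemin, had 3.37 ± 0.91 (0.0456) and rested on replicate 1 of group 1 with 516 CPM, without which it was 0.86 (0.510). The Mann-Whitney U-test and the fit with a cortical score each called 0 of the 26, and DESeq2 did not call GFRA3 (0.77, 0.507). With the cortical score the log2 FC was 2.80 for NGFR (edgeR FDR-adjusted p = 0.653) and 4.17 for GFRA3 (0.674).

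Against the NAMs, NGFR was higher in group 1, with a log2 FC of 1.71 (edgeR FDR-adjusted p = 0.0325), and lower in group 2, at −1.58 (0.0277). In group 1 only 3 of 7 tumors were above the NAM median, and 11 of 12 tumors of group 2 were below it. The call in group 1 was lost without any of 5 libraries. These were NAM replicates 1 (1.61, 0.0540) and 6 (1.67, 0.0506) and group 1 replicates 1 (1.60, 0.0575), 2 (0.93, 0.225) and 7 (1.59, 0.0575). It was also lost by Mann-Whitney (exact, FDR-adjusted p = 0.977) and with the cortical score (edgeR, 1.03, 0.890). The call in group 2 was lost without NAM replicate 10 (−1.39, 0.0580) and with the cortical score (−1.83, 0.249).

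The counts of called genes of other cell types stand beside the 37.5% of all genes called in PPGLs against NAMs. Of the adrenal cortex genes, 0 rose and 7 of 8 fell in PPGLs against NAMs, and CYP17A1 was the most abundant. Their summed level was 12626 to 61811 CPM in NAMs with a median of 33155, 21.6 to 1135 in group 1 with a median of 202, and 201 to 31106 in group 2 with a median of 3355. The share of cortical tissue in the NAMs was not measured. Group 1 and NAMs did not overlap in cortical RNA, so its part in the values of the markers cannot be told apart from the group. With a cortical score in the fit, the log2 FC of SOX10 was 3.67 in group 1 and 0.56 in group 2, and that of CDH19 was 1.66 in group 1. Among the PPGLs, MBP had an r of −0.564 with the summed cortex level and SOX10 an r of 0.239, and neither relation was tested.

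Of 10 fibroblast genes, 7 rose and 0 fell by edgeR, 4 were higher and 1 lower by Mann-Whitney, and 6 higher and 1 lower by DESeq2, with THY1 the most abundant, and their sum was 686 to 1316 CPM in NAMs (median 854) and 573 to 27663 in PPGLs (median 2836). The highest sum was in replicate 11 of group 2, the tumor with 45.2 CPM of PMP22, 22.5 CPM of MBP and 1 count of SOX10. PMP22 had an r of 0.608 and a rho of 0.454 with the fibroblast sum over the 19 PPGLs, and the part of fibroblasts in the PMP22 level was not tested. Of 9 chromaffin genes, 2 rose and 1 fell, with CHGB the most abundant, and their sum ran from 16196 to 92431 CPM over the NAMs and from 7447 to 117872 over the PPGLs (median 36118). The r of SOX10 with that sum was 0.473 in the PPGLs.

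Of 7 endothelial genes, 0 rose and 4 fell, with PECAM1 the most abundant and a median sum of 679 CPM in NAMs and 407 CPM in PPGLs. Of 8 leukocyte genes, 2 rose and 1 fell, with CD79A the most abundant and median sums of 643 and 439.6 CPM. Of 6 ganglion neuron genes tested, 2 rose and 2 fell, with NEFM the most abundant and median sums of 478 and 184 CPM. Of 3 adipocyte genes tested 0 passed the edgeR test, as 1 did at an unadjusted p under 0.05, 0 by Mann-Whitney and 1 by DESeq2. FABP4 was the most abundant of them, with median sums of 3.97 and 3.75 CPM and the highest sum, 56.8 CPM, in replicate 6 of group 2. The part of these cell types in the levels of the markers was not tested.

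Central glia and melanocytes also express some of the markers. Of the central glia genes only AQP4 was tested and it was not called by edgeR, with 1 at an unadjusted p under 0.05, 1 called lower by Mann-Whitney and 0 by DESeq2. MOG and MOBP, of oligodendrocyte myelin, had 3 counts or fewer in every sample. OLIG1 and OLIG2, named after their values were seen, did not pass the filter but reached 121 and 98 counts. The sum of the central glia list was at most 2.91 CPM in NAMs and 6.95 CPM in PPGLs. Of the melanocyte genes, 2 were tested, 0 were called by edgeR, Mann-Whitney or DESeq2, and 0 had an unadjusted p under 0.05. DCT and TYRP1, enzymes of pigment cells, which come from SOX10-positive cells, had 3 counts or fewer in every sample, and MITF led a sum of at most 18.5 CPM in NAMs and 17.4 CPM in PPGLs.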

How the data were processed

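RNA of 10 normal adrenal medullas (NAMs) and 19 canine pheochromocytomas and paragangliomas (PPGLs), 7 in group 1 and 12 in group 2, was sequenced by the authors from stranded mRNA libraries, from 1 end and over 50 bp. The alignment to CanFam3.1 used STAR, and FastQC, Picard and HTSeq are also named, while the deposited table is named after featureCounts. The strand setting of the counter and its handling of reads with several positions were not stated. The unit of the values is the count: the authors deposited raw counts over the exons of 30951 genes, with no normalization, and the exon length of each gene. Of these genes 18239 had a name.

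Counts were analyzed with edgeR 4.0.16 in R 4.3.3. Genes passed the filterByExpr function (minimum count 10, minimum total 15), libraries were scaled by TMM, and a quasi-likelihood F test was made per gene with a prior count of 0.125 for the log2 FC. P was adjusted by the Benjamini-Hochberg method over all genes tested, with a threshold of 0.05 against NAMs and 0.1 between the groups, as in the study. PPGLs against NAMs used 29 samples, each group against NAMs used a fit of 3 groups with the same 29, and group 1 against group 2 used the 19 PPGLs. Genes tested numbered 14766, 15201 and 14666. The fits of the first and last layouts were also run on simulated data, from which no result is given here. Levels are TMM-scaled CPM, log2 CPM uses a prior count of 2, and figures and summaries used Python 3.11.15, pandas 2.3.3, scipy 1.17.1 and matplotlib 3.10.9. A count of 3 or fewer was treated as not separable from 0.

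The same genes were also tested with DESeq2 1.42.0 (Wald test) and the Mann-Whitney U-test, which was exact in the comparisons of the groups unless values were tied and used the normal approximation for PPGLs against NAMs. The other alternatives were DESeq2 size factors, library size only, no filter, a filter at 1 CPM, the ratio of mean CPM, a prior count of 2, all 3 groups in the fit, replicate number as a block, a covariate for cortical RNA (the mean log level of the adrenal cortex list), and leaving out each library in turn. Leaving out the 4 PPGLs in which TH or CHGB was far below every NAM was added after the data were seen.

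The 7 markers were taken by gene name. Beside them 13 lists were written by hand: Schwann cell regulators, ligands and receptors of Schwann cells, myelin, and other Schwann and satellite glia, which together are the wider list, and 9 lists of other cell types, namely chromaffin, adrenal cortex, fibroblast, endothelial, leukocyte, melanocyte, central glia, ganglion neuron and adipocyte genes. The markers and the lists were chosen with earlier results of these data known. SOX2, NCMAP, FABP7, CYP11B2 and ADIPOQ were not found by name. The text names all markers, the genes of the wider list with a mean of at least 5 CPM or chosen by name beforehand (among them ERBB3, NGFR, SOX2 and NRG1), the most abundant gene of each other list and those with 3 counts or fewer in every sample, and the genes most like SOX10 (10) and the other markers (3) by Spearman rho. Values are not given for every gene that this rule names.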

Additional observations from a re-analysis of the deposited data

Results flagged for a closer look

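Samples far from the others of their group were looked for in 36 pairs of a gene and a group, on log2 CPM, and 5 were found. Chance gives such a finding in about 1 in 20 groups. Group 2, with 12 tumors, was too large for this check. Of the markers, GFAP had 0 CPM in replicate 5 of group 1, where the gap to the next tumor was 0.598 of the range of the group. MBP had 3.01 CPM in replicate 2 of group 1, while the other 6 tumors had 14.3 CPM or more, and the gap was 0.740 of the range. From the wider list, CNP was low in replicate 1 of group 1 at 40.9 CPM (0.588 of the range), ERBB2 was far from the others in NAM replicate 3 at 7.32 CPM (0.471), and GFRA3 was high in replicate 1 of group 1 at 516 CPM (0.594).

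Between the tumor groups 2 of 26 genes of the wider list were called, where 6.92% of all genes were, NGFR with a log2 FC of 3.30 and GFRA3 with 3.37 (edgeR FDR-adjusted p = 0.0161 and 0.0456), each above the median of group 2 in 6 of 7 tumors of group 1. The value for GFRA3 was 0.86 without replicate 1 of group 1, and Mann-Whitney called 0 of the 26. None of the causes was tested.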

How the results depend on the processing

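Of 268 values of the 6 tested markers under alternatives other than leaving out a library, 240 kept their direction and their side of the threshold, 9 passed it in the same direction and 19 changed sign. Of 156 values of named genes of the wider list, 134 kept both, 4 passed the threshold, 17 no longer passed it and 1 changed sign. With library size only, the median log2 FC of all genes moved from 0.13 to 0.24 in group 1 against NAMs. No cause was tested for the changes below.

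For PPGLs against NAMs the number of markers called, 0 with edgeR, was 2 by Mann-Whitney and 1 by DESeq2. Against NAMs it was 1 by Mann-Whitney for group 1, and 1 by DESeq2 and 2 by Mann-Whitney for group 2. Between the groups it was 0 in every alternative run. For the wider list in PPGLs against NAMs, with 7 called, Mann-Whitney gave 14 (5744 of 14766 for all genes) and the cortical score 4 (2152 of 14766), of which EGR2 and SEMA3B were among the 7 and NGFR and GFRA3 were not. Between the groups, with 2 called, the fit of all 3 groups gave 5 (2567 of 15201 for all genes), DESeq2 4 (1793 of 14666), Mann-Whitney 0 (386 of 14666) and the cortical score 0 (187 of 14666). Without the tumors with low chromaffin genes 0 markers were called in each comparison, and of the wider list 7 and 2.

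The cortical score changed the most signs. In group 1 against NAMs it gave 3.67 for SOX10, 3.03 for FOXD3, 1.66 for CDH19, 0.57 for GFAP and −0.64 for MBP. In group 2 it gave 0.56 for SOX10 and 0.28 for FOXD3, and in all PPGLs −0.75 for MBP. Summed cortex levels of group 1 and NAMs did not overlap, and with the score 8 of 15201 genes were called in group 1. Library size only gave 0.029 for GFAP in group 1. Without the tumors with low chromaffin genes, group 1 had 0.27 for SOX10, 0.42 for FOXD3 and 0.43 for GFAP, MBP in all PPGLs had −0.024, and PMP22 between the groups had 0.19.

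Replicate numbers count different dogs. Of 24 pairs with the same number, the correlation of the deviations from the group means was −0.232 to 0.251 with a median of −0.0132, and 2 passed 0.1. Only 2 samples correlated best with their own number. As a block, replicate number called 2 markers in PPGLs against NAMs, CDH19 at −1.97 and PMP22 at −0.80. Of the wider list it called 11 (4653 of 14766 for all genes), and between the groups 0 (47 of 14666). It lost the calls of NGFR in group 1 (1.25), in group 2 (−1.64) and between the groups (2.33), and of GFRA3 between the groups (1.33). It changed the sign of MBP (−0.016) and ERBB3 (−0.19) in PPGLs against NAMs, of GFAP in group 1 (0.20), and between the groups of SOX10 (−0.46), CDH19 (−0.78) and PMP22 (0.063).

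Leaving out 1 library at a time gave 0 to 2 markers called in PPGLs against NAMs and in group 1, 0 to 1 in group 2 and 0 between the groups, and of the wider list 6 to 9 and 2 to 3. The log2 FC in PPGLs against NAMs was −1.88 to −1.35 for CDH19, −0.78 to −0.59 for PMP22, −1.05 to −0.28 for FOXD3, −0.88 to −0.31 for GFAP, 0.03 to 0.19 for MBP, 0.09 to 0.44 for ERBB3 and 0.22 to 0.63 for NRG1. In group 1 it was −1.52 to −0.23 for SOX10, −1.06 to 0.20 for FOXD3, −2.84 to −1.03 for CDH19, −0.51 to 0.27 for GFAP, −1.15 to −0.53 for PMP22 and 0.93 to 1.93 for NGFR. In group 2 it was −1.69 to −0.66 for FOXD3, −0.41 to −0.15 for MBP, −0.84 to −0.55 for PMP22 and −1.85 to −1.39 for NGFR. Between the groups it was −0.35 to 1.08 for SOX10, −0.0089 to 1.06 for FOXD3 (tested in 16 of 19 fits), 0.62 to 1.32 for GFAP, −1.26 to 0.59 for CDH19, −0.51 to 0.17 for PMP22 and 0.86 to 3.90 for GFRA3. The FDR-adjusted p of edgeR for CDH19 in PPGLs against NAMs ran from 0.0109 to 0.103 over these fits.

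S100B had too few reads to be tested with a low-count filter in the fits of all samples, and FOXD3 was at or under 3 counts in 7 of 19 PPGLs. Reads of 50 bp counted over whole genes do not tell transcripts of MBP or PMP22 from each other. The dogs of the NAMs differ from those of the PPGLs in origin, and age, clinic and surgery were not used as covariates. The tumor groups come from the same RNA data. A lower share of glial cells, a loss of these transcripts per cell and the cortex within NAM tissue cannot be told apart here.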
